A study of Mus musculus with 4 samples.

Results

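The genes described here are the members of 7 solute carrier (SLC) families that hold most amino acid transporters of the plasma membrane and the lysosome. They were chosen by name alone, as every gene of the count table whose symbol begins with Slc1a, Slc3a, Slc6a, Slc7a, Slc36a, Slc38a or Slc43a and a number. There were 62 such genes among 22609. The rule also takes in 1 gene that is no transporter, Slc7a6os, named for lying opposite Slc7a6, and members that carry other cargo, such as creatine, taurine or noradrenaline. RNA was sequenced from FAP+ cells, sorted from a spontaneous model of pancreatic ductal adenocarcinoma in C57BL/6 mice and divided by surface CD34 into FAP+ CD34+ and FAP+ CD34- cells with 2 libraries each. FAP (fibroblast activation protein) is a surface protease of tumour stromal cells, and CD34 is a sialomucin found on endothelial, haematopoietic progenitor and some stromal cells. The driver alleles of the tumour model, the age of the mice and the number of animals per library are stated in none of the sources at hand. The titles call the libraries biological replicates, and p-values measure only the spread between them.

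Amino acids cross membranes on carriers that either couple to sodium or protons and concentrate their substrate, or exchange one amino acid for another. SLC3 proteins are heavy chains without transport activity of their own; Slc3a2 (4F2hc, CD98) brings several SLC7 light chains to the cell surface. In many cells SLC1 and SLC38 carriers load glutamine and other neutral amino acids, the SLC7 exchangers trade these for leucine, arginine or cystine, and amino acid shortage induces several of the genes through the transcription factor ATF4. Carriers of the lysosome, in the SLC36, SLC38 and SLC7 families, report or release the products of protein breakdown.

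The core letters that ATF4 reads in the amino acid response element, TGATGNAA, were searched on both strands in the 250 bases before the start sites of the members, with RefSeq sequence of GRCm38.p6. Of the 62 genes 44 had at least 1 such window, 65 windows in all. The other members had no window and were not searched, among them Slc1a5, Slc7a2, Slc7a5, Slc43a3, Slc6a6 and Slc6a8. The letters stood in 3 of the 65 windows (4.62%), against 3.45% of 32851 windows of all genes. They belonged to Slc7a11, the light chain of the cystine and glutamate exchanger, and to Slc7a7, the light chain of a cationic amino acid exporter. These windows are shown because Slc7a7 had the smallest p of all members in the comparison by CD34 and because Slc7a11 held the letters in both orientations. Capitals mark the matched letters, and each window is written 5′ to 3′ on the strand of the gene.
Slc7a11, chr3:50443614-50443863, minus strand: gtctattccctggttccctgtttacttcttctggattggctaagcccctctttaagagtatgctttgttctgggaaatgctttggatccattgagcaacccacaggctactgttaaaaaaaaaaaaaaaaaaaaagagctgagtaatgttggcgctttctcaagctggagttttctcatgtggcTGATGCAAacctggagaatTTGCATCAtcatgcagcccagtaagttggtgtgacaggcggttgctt
Slc7a7, start A, chr14:54417703-54417952, minus strand: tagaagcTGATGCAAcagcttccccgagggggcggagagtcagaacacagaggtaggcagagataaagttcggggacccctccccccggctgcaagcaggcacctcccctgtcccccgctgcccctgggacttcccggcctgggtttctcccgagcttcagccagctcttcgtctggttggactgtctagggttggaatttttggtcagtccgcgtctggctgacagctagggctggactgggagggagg
Slc7a7, start B, chr14:54417945-54418194, minus strand: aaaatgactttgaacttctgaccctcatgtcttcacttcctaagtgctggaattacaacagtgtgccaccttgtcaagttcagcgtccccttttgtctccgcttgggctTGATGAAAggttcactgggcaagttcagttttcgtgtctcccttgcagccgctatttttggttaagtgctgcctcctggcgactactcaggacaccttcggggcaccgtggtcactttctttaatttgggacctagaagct
In Slc7a11 the matches began at positions -66 and -47 relative to the start, the first on the strand of the gene and the second on the other, and they did not overlap. In Slc7a7 there were 2 different matches. TGATGCAA began at position -243 relative to start A, and TGATGAAA at position -141 relative to start B. The windows of its other starts held no match. The letters TGACNNNGC of the antioxidant response element stood in 12.3% of the member windows and 10.2% of all windows, in Slc38a2, Slc43a1, Slc6a9, Slc7a1, Slc7a6 and 2 low-expressed members. The E-box CACGTG stood in 12.3% against 6.02%, with Slc36a1, Slc38a7, Slc43a1 and Slc7a14 among its members. No member window held more than 1 kind of these 3 motifs except that of Slc43a1, where the 2 matches did not overlap. A match describes the letters only.

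Levels are CPM, counts scaled to the library's total count. The totals ran from 10322354 to 14633561 counts, so 3 counts, the most that a count of 0 allows, equal 0.205 to 0.291 CPM by counting error alone. The sort by CD34 was visible in the transcripts. Cd34 was 143 and 293 CPM in CD34+ replicates 1 and 2 and 18.3 and 23.9 CPM in CD34- replicates 1 and 2. In the same order Fap, the marker by which both fractions were sorted, was 79.0, 39.8, 142 and 136 CPM, lower in both CD34+ libraries. The 8 fibroblast markers summed to between 36851 and 40467 CPM, led by Col1a2. Summed over 8 endothelial markers the CD34+ libraries had 80.5 and 63.5 CPM and the CD34- libraries 25.9 and 27.1 CPM. Leukocyte and macrophage markers (8 genes) gave 131 and 97.7 against 62.5 and 52.6 CPM, and mesothelial markers (5 genes) 264 and 143 against 137 and 99.0 CPM. The mesothelial sum was mostly Wt1, at 206 and 120 against 57.7 and 79.3 CPM. By sign 3 of these 5 were positive and 2 negative, namely Upk1b and Msln (49.8 and 13.8 against 75.0 and 11.6 CPM). Pericyte markers (7 genes) gave 380 and 290 against 408 and 520 CPM. Within that list Rgs5 was 2.13 and 7.33 against 45.5 and 89.7 CPM and Mcam 27.9 and 16.5 against 103 and 103 CPM. At an unadjusted p of 0.05 3 of the 7 lay lower (42.9%, against 6.65% of all tested genes). By sign 4 of the 7 were negative and 3 positive, with Notch3 at 57.4 and 33.9 against 37.1 and 33.1 CPM. The most abundant, Cspg4, was 243 and 51.9 against 139 and 196 CPM. Schwann and neural markers (6 genes) were also lower without overlap, at 17.8 and 17.5 against 35.4 and 34.2 CPM, while acinar and islet markers (8 genes) gave 26.9 and 32.0 against 27.4 and 14.1 CPM. Epithelial markers (6 genes) gave 732 and 500 against 726 and 366 CPM. No marker of these lists was at 0 in all 4 libraries; Sox10 of the Schwann cell list and Ins2 stayed at or under 3 counts in each. The part of these cells in any difference below was not tested, and fewer cells of a type cannot be told apart from less RNA per cell.

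Of the 62 members 29 averaged at least 5 CPM and 8 at least 100 CPM, while 26 averaged below 1 CPM. Together the 62 genes held 3189 and 2975 CPM in CD34+ cells, against 2983 and 3087 CPM in CD34- cells, so that the total of the families overlapped between the fractions. Per length, on the deposited RPKM scale within each library, the first place among the members went to Slc43a3, a purine nucleobase transporter of the SLC43 family, in 4 of 4 libraries, and the next place to Slc3a2 in 4 of 4. Slc38a2 (SNAT2), the sodium-coupled importer of glutamine and other small neutral amino acids, took place 3 in 3 libraries and place 5 in CD34+ replicate 1. Slc38a10, a less well studied SLC38 member, and the taurine transporter Slc6a6 took places 4 and 5 in the same 3 libraries and places 7 and 8 in CD34+ replicate 1. The glutamine exchanger Slc1a5 (ASCT2) took place 3 in CD34+ replicate 1 and places 7 to 9 elsewhere. The creatine transporter Slc6a8 ranged from place 4 to place 7, and the arginine transporter Slc7a2 (CAT2) from place 6 to place 9. The deposited FPKM gave a partly different order. By FPKM Slc3a2 exceeded Slc43a3 in CD34+ replicate 1 (134 against 86.2) and CD34- replicate 2 (148 against 139), but not in the other libraries. Slc38a10 exceeded Slc38a2 in CD34- replicates 1 and 2 (62.2 against 32.9 and 73.3 against 39.2 FPKM). RNA was amplified from the poly(A) tail, so division by gene length may misstate the order of long and short transcripts.

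**Figure D1:**
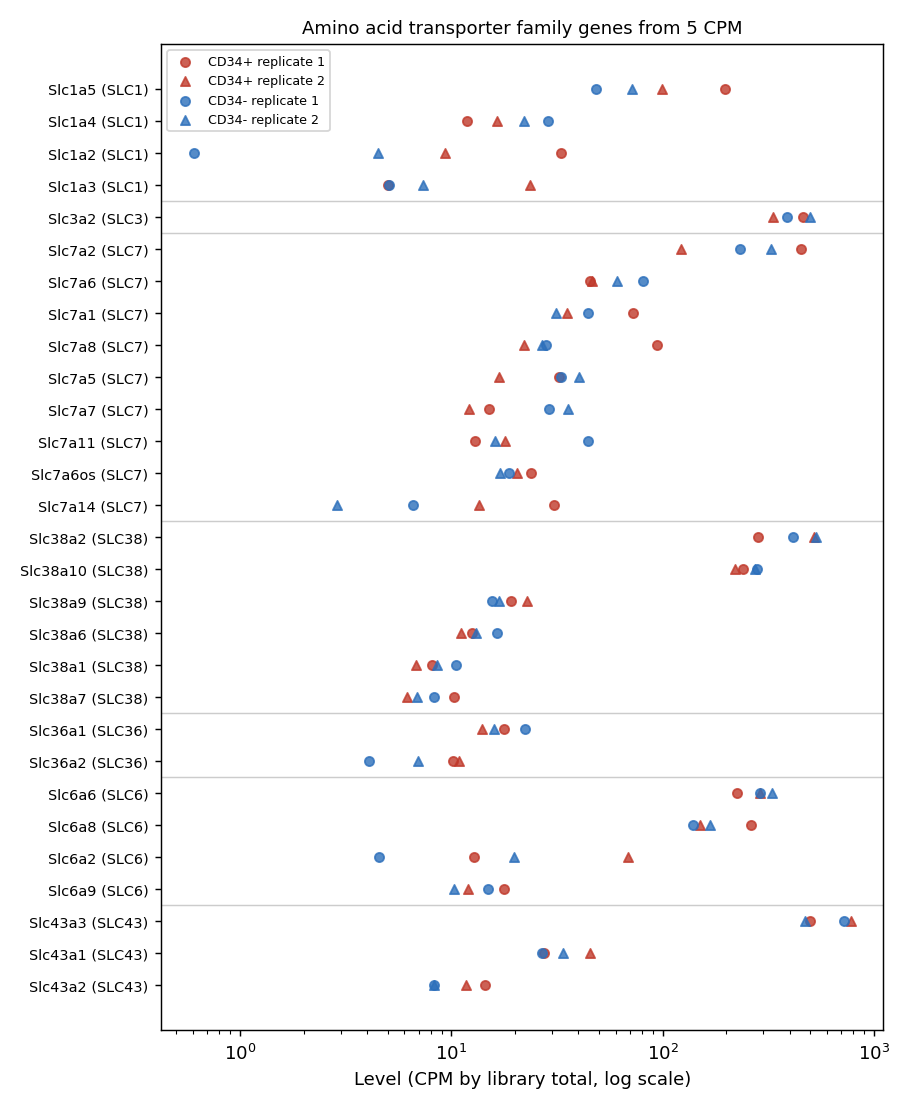
Level of each of the 29 members that averaged at least 5 CPM, by SLC family, on a log axis of CPM; each point is 1 library, red for CD34+, blue for CD34-, circles for replicate 1 and triangles for replicate 2. The libraries of Slc7a7 and Slc1a5 separate by fraction, while Slc7a2 spreads from 122 to 452 CPM within the CD34+ fraction.

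Whether FAP+ cells differ by CD34 in these genes was asked with the fit across all 13875 genes that passed the filter on low counts, among them 36 of the 62 members. No member passed: at an adjusted p of 0.05 edgeR's quasi-likelihood test called 0 of 36 higher and 0 of 36 lower, against 0.0% of all genes in each direction, and the smallest adjusted p of a member was 0.186 (Slc7a7). At an unadjusted p of 0.05 6 of 36 members lay higher in CD34+ (16.7%, against 9.81% of all tested genes), namely Slc1a2, Slc1a5, Slc38a4, Slc6a12, Slc6a17 and Slc7a14, and 3 lower (8.33%, against 6.65%), namely Slc1a4, Slc7a6 and Slc7a7. DESeq2 called Slc1a2, Slc6a12 and Slc7a14 higher (3 of 36, against 2.58% of genes) and Slc7a7 lower (1 of 36, against 1.46%). edgeR's exact test called 3 of these 4, all but Slc1a2, where it called 3.39% of all genes higher and 1.48% lower. edgeR without a filter called Slc7a14 alone of 62 members, against 0.924% of genes higher and 0.653% lower, and limma voom called 0 members and 0.0% of genes. A fit of edgeR that also held a term for the replicate number called 0 of 36 in either direction, against 0.281% of genes higher and 0.166% lower. The libraries of the fractions did not overlap for 10 members higher in CD34+ (27.8%, against 23.4% of genes) and 8 lower (22.2%, against 26.6%), shares near the background. The median log2 fold change of CD34+ over CD34- was 0.22 over the 36 members and -0.02 over all tested genes. On the scales of the deposited RPKM and FPKM the median of the members was below 0 (-0.10 on log2 of RPKM + 1), where the median of all genes also moved, to -0.31.

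**Figure D2:**
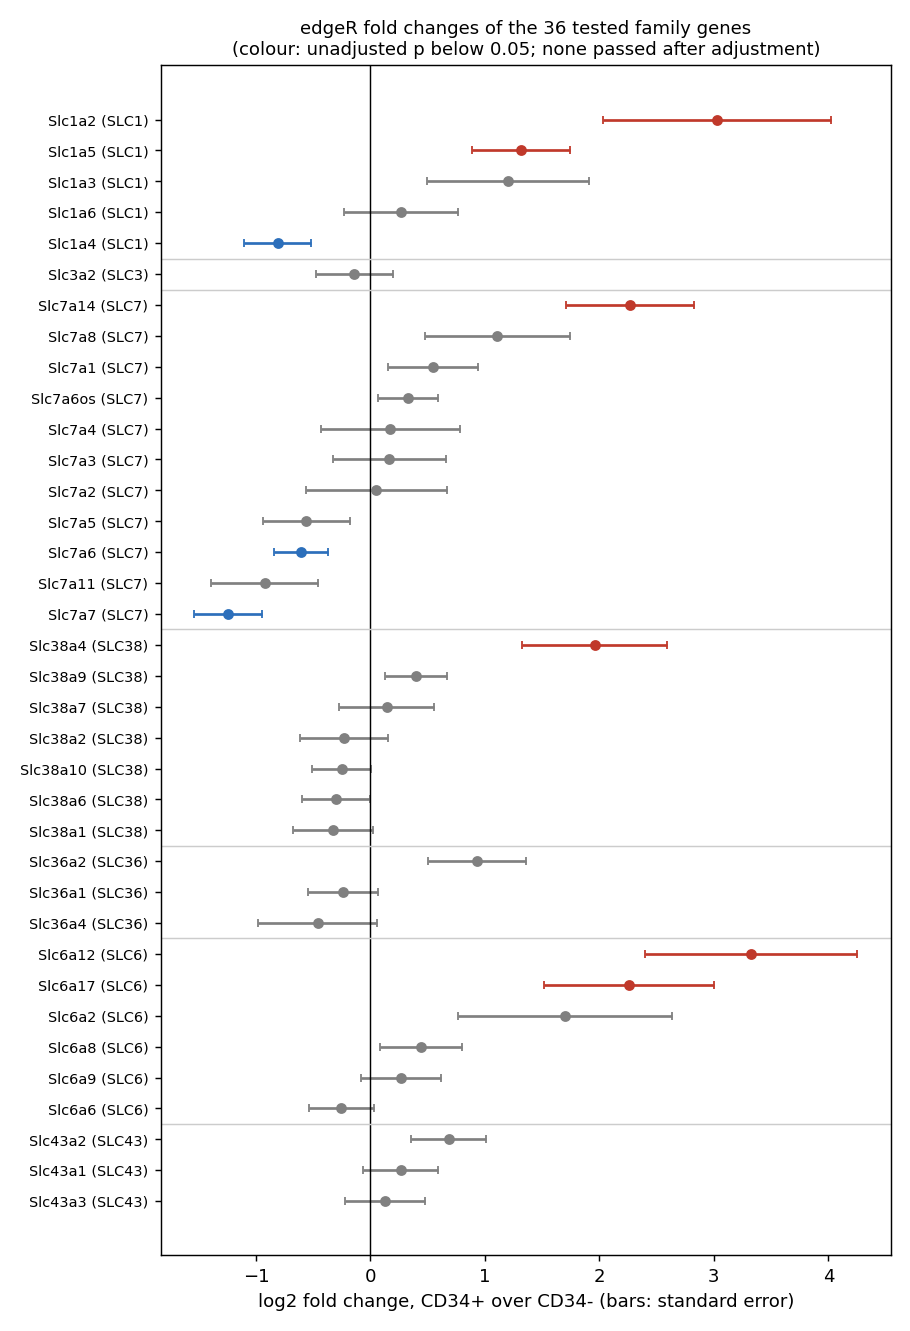
Log2 fold change of CD34+ over CD34- for the 36 tested members by family, from edgeR; points are estimates, bars 1 standard error, and colour marks an unadjusted p below 0.05 (red higher, blue lower). The coloured genes number 6 to the right of 0 and 3 to the left, and none passed after adjustment over 13875 genes.

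The SLC1 family joins glutamate transporters with exchangers of neutral amino acids. Its summed level was 252 and 153 CPM in CD34+ cells, against 85.0 and 109 CPM in CD34- cells, without overlap, and Slc1a5 made up 69.9% of it. Slc1a5, which brings glutamine into the cell in exchange for other neutral amino acids, was 198 and 99.5 CPM in CD34+ cells, against 48.5 and 72.0 CPM in CD34- cells. Both CD34+ libraries lay above both CD34- libraries and CD34+ replicate 1 was the highest of the 4. The log2 fold change was 1.32 (SE 0.43, adjusted p = 0.245, edgeR) and dropped to 0.70 without CD34+ replicate 1. Slc1a4 (ASCT1), the related exchanger of serine, alanine and cysteine, ran the other way, at 11.9 and 16.5 against 28.6 and 22.1 CPM. All CD34+ values lay below all CD34- values (log2 fold change -0.81, SE 0.29, adjusted p = 0.270, edgeR). The 2 exchangers of one family thus had opposite signs in these libraries.

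The glutamate transporters were low and uneven. Slc1a2 (GLT-1), the main glutamate carrier of astrocytes, was 33.2 and 9.38 CPM in CD34+ cells, against 0.605 and 4.51 CPM in CD34- cells. The fractions did not overlap, but the 2 libraries of each lay far apart, and the log2 fold change of 3.03 had an SE of 1.00 (adjusted p = 0.249, edgeR; adjusted p = 0.0047, DESeq2). It moved to 1.81 without CD34+ replicate 1 and to 5.20 without CD34- replicate 2. Slc1a3 (GLAST) was 5.04 and 23.6 against 5.07 and 7.38 CPM, an overlap in which CD34+ replicate 2 stood alone, and the sign of its fold change turned without that library (1.20 with it, -0.30 without). Slc1a6 stayed between 1.66 and 2.49 CPM, and Slc1a1 and Slc1a7 averaged below 1 CPM.

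Slc3a2, the heavy chain shared by the light chains below, was 463 and 332 CPM in CD34+ cells, against 387 and 498 CPM in CD34- cells. The fractions overlapped, and the log2 fold change of -0.14 was within its SE of 0.34 (adjusted p = 0.853, edgeR). The other heavy chain, Slc3a1 (rBAT) of kidney and gut, had 1 to 5 counts per library, and its light chains Slc7a9 and Slc7a13 had 0 to 6.

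The light chains that pair with Slc3a2 differed among themselves. Slc7a7 (y+LAT1), which exports cationic amino acids such as arginine in exchange for neutral ones, was 15.0 and 12.2 CPM in CD34+ cells, against 29.1 and 35.9 CPM in CD34- cells. Both CD34+ libraries lay well below both CD34- libraries, and the replicates of each fraction lay close together. The log2 fold change was -1.25 (SE 0.29, adjusted p = 0.186, edgeR), it stayed between -1.49 and -1.01 when any 1 library was left out, and DESeq2 called the gene lower (adjusted p = 0.042). Macrophages are known for Slc7a7, and the summed leukocyte and macrophage markers lay the other way, higher in the CD34+ libraries. Of the 7 pericyte markers 4 had a negative log2 fold change as Slc7a7 had, Rgs5 and Mcam among them, and 3 a positive one. The part of any of these cells was not tested. In the reference annotation Slc7a7 overlaps Oxa1l (23.9 and 40.1 against 53.3 and 39.3 CPM), and without a stated strand setting reads of the overlap cannot be told apart.

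Slc7a6 (y+LAT2), which has the same kind of exchange, was 45.1 and 46.2 CPM in CD34+ cells, against 81.1 and 60.7 CPM in CD34- cells. The fractions did not overlap, and the log2 fold change was -0.61 (SE 0.24, adjusted p = 0.290, edgeR). Its neighbour Slc7a6os had the opposite sign (23.8 and 20.4 against 18.8 and 17.1 CPM, log2 fold change 0.33, SE 0.26, adjusted p = 0.552, edgeR). Slc7a5 (LAT1), the exchanger that imports leucine and other large neutral amino acids, was 32.4 and 16.8 against 33.1 and 40.2 CPM. Only CD34+ replicate 2 stood apart, low, and with TMM scaling the fractions overlapped (log2 fold change -0.56, SE 0.38, adjusted p = 0.488, edgeR). The estimate was -0.17 without that library and -1.14 without CD34+ replicate 1. Slc7a11 (xCT), which imports cystine for glutathione synthesis in exchange for glutamate, was 13.0 and 17.9 against 44.6 and 16.1 CPM. Here CD34- replicate 1 alone was high, and its log2 fold change, -0.92 (SE 0.47, adjusted p = 0.376, edgeR), shrank to -0.15 without it. Of the 2 searched members in which the amino acid response letters were found, the libraries of Slc7a7 separated by fraction and those of Slc7a11 overlapped. Slc7a5 had no window and was not searched.

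Slc7a8 (LAT2), the other exchanger of neutral amino acids, was 94.4 and 22.1 CPM in CD34+ cells, against 28.2 and 26.9 CPM in CD34- cells. CD34+ replicate 1 was high and the other 3 lay together, so its log2 fold change, 1.11 (SE 0.63, adjusted p = 0.417, edgeR), turned to -0.33 without that library. Of the 6 epithelial markers 3 were also highest in CD34+ replicate 1, and the other 3 in CD34- replicate 1, Krt8 among them (219 and 205 against 263 and 142 CPM). CD34+ replicate 1 was likewise highest for 6 of 8 leukocyte and macrophage, 5 of 8 endothelial, 5 of 8 acinar and islet and 3 of 5 mesothelial markers. It was highest for 3 of 8 fibroblast, 2 of 7 pericyte and 1 of 6 Schwann and neural markers. The part of any of these cells in the level of Slc7a8 was not tested. Slc7a10 had 1 to 15 counts per library.

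Within a library, the make-up of these 6 light chains was read from their RPKM. By RPKM Slc7a6 held the largest share in 3 libraries, with 41.1% in CD34+ replicate 2 and 39.0% and 31.3% in CD34- replicates 1 and 2. The deposited FPKM gave another order in the CD34- libraries. There Slc7a7 exceeded Slc7a6, at 12.3 against 11.4 FPKM in replicate 1 and 16.6 against 8.42 FPKM in replicate 2. In CD34+ replicate 1 Slc7a8 took 43.8% and Slc7a6 22.6%. The share of Slc7a7 was 12.3% and 17.7% in the CD34+ and 22.9% and 30.3% in the CD34- libraries, without overlap. Slc7a5 held 15.9% to 22.0% in all 4. Slc3a2 exceeded the 6 light chains together in every library, by a ratio of RPKM of 3.08 and 3.92 in CD34+ and 2.46 and 3.41 in CD34- libraries.

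**Figure D3:**
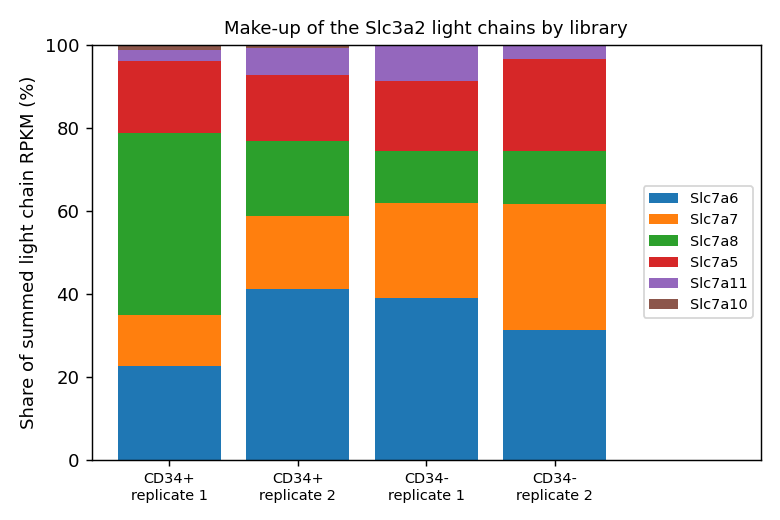
Share of each of the 6 light chains that pair with Slc3a2 in their summed RPKM (percent, vertical axis), 1 stacked bar per library. Slc7a7 takes 12.3% and 17.7% of the CD34+ bars and 22.9% and 30.3% of the CD34- bars, and Slc7a8 takes 43.8% in CD34+ replicate 1 alone.

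Slc7a1, Slc7a2 and Slc7a14 work without a heavy chain. Slc7a2, an arginine transporter induced in inflammation, was 452 and 122 CPM in CD34+ cells, against 234 and 327 CPM in CD34- cells. The 2 CD34+ libraries held the highest and the lowest value, and its log2 fold change, 0.05 (SE 0.61, adjusted p = 0.974, edgeR), was -1.23 without CD34+ replicate 1 and 0.69 without CD34+ replicate 2. The housekeeping arginine transporter Slc7a1 (CAT1) was 72.8 and 35.5 against 44.6 and 31.2 CPM and overlapped (log2 fold change 0.55, SE 0.39, adjusted p = 0.508, edgeR). Arg1, the enzyme that splits arginine, was 28.0 and 11.4 against 119 and 72.4 CPM (log2 fold change -2.24, SE 0.48, adjusted p = 0.176, edgeR). The lysosomal member Slc7a14 was 30.6 and 13.6 CPM in CD34+ cells, against 6.58 and 2.87 CPM in CD34- cells. All CD34+ values exceeded all CD34- values, although replicate 1 was above replicate 2 by more than 2-fold in either fraction. It had a log2 fold change of 2.27 (with SE 0.56, adjusted p = 0.197, edgeR), it lay between 1.53 and 2.85 when any 1 library was left out, and DESeq2 called it higher (adjusted p = 0.0027). The summed endothelial (Vwf at 27.1 and 16.3 against 3.03 and 3.42 CPM), leukocyte and macrophage, and mesothelial markers given above lay the same way. The summed pericyte and the summed Schwann and neural markers lay the other way. At an unadjusted p of 0.05 6 of 8 endothelial markers lay higher (75%, against 9.81% of all tested genes). So did 2 of 6 tested leukocyte and macrophage markers (33.3%) and 3 of 5 mesothelial markers (60%). The part of any of these cells was not tested. Slc7a3 and Slc7a4 stayed between 1.03 and 2.87 CPM.

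The SLC38 family was dominated by Slc38a2, with 59.0% of the summed CPM. It was 284 and 522 CPM in CD34+ cells, against 416 and 532 CPM in CD34- cells, an overlap with a log2 fold change of -0.23 (with SE 0.38, adjusted p = 0.782, edgeR). Slc38a10 lay in a narrow band, at 240 and 219 against 281 and 273 CPM. Its fractions did not overlap, but the log2 fold change of -0.25 was within its SE of 0.26 (adjusted p = 0.640, edgeR). Slc38a1, a carrier of the same transport system as Slc38a2, was 8.14 and 6.81 against 10.5 and 8.54 CPM, and Slc38a6 was 12.5 and 11.1 against 16.5 and 13.1 CPM. Both were slightly lower in each CD34+ library, within about 1 SE (log2 fold changes -0.33, SE 0.35, and -0.30, SE 0.30).

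The lysosomal carriers Slc38a9, Slc38a7 and Slc36a1 showed small differences. Slc38a9, the arginine sensor that signals to the growth regulator mTORC1, was 19.2 and 22.9 against 15.5 and 16.8 CPM, higher in each CD34+ library (log2 fold change 0.40, SE 0.27, adjusted p = 0.494, edgeR). Slc38a7, which releases glutamine and asparagine from lysosomes, was 10.3 and 6.15 against 8.25 and 6.90 CPM and overlapped. Slc36a1 (PAT1), a proton-coupled exporter of small amino acids from lysosomes, was 17.8 and 13.9 against 22.4 and 15.9 CPM and overlapped as well. Slc36a2 (PAT2), a proton-coupled carrier of glycine, alanine and proline, was 10.2 and 10.9 against 4.09 and 6.97 CPM, without overlap (log2 fold change 0.93, SE 0.43, adjusted p = 0.340, edgeR; 0.51 without CD34- replicate 1 and 1.45 without CD34- replicate 2). Summed, the SLC36 family was 30.3 and 26.3 against 29.4 and 25.0 CPM, an overlap of the fractions.

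In the SLC43 family 3 of 3 members had a positive log2 fold change and none passed the test. Slc43a3 was 501 and 776 CPM in CD34+ cells, against 721 and 472 CPM in CD34- cells, an overlap in which the order of the replicates was opposite in the fractions (log2 fold change 0.13, SE 0.35, adjusted p = 0.877, edgeR). Slc43a1 (LAT3), a sodium-independent carrier of large neutral amino acids, was 27.4 and 45.4 against 27.0 and 34.0 CPM and overlapped. Slc43a2 (LAT4), with the same kind of cargo, was 14.4 and 11.8 against 8.25 and 8.27 CPM. Its fractions did not overlap (log2 fold change 0.68, SE 0.33, adjusted p = 0.353, edgeR).

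The SLC6 family holds sodium- and chloride-coupled carriers, many of them of neurotransmitters, and 15 of its 19 members averaged below 5 CPM. The abundant ones carry osmolytes and energy buffers. Slc6a6 was 224 and 289 against 290 and 328 CPM, where the fractions touched and overlapped with TMM scaling (log2 fold change -0.26, SE 0.28, adjusted p = 0.670, edgeR). Slc6a8 was 263 and 151 against 140 and 168 CPM, high in CD34+ replicate 1 alone (log2 fold change 0.44, SE 0.36, adjusted p = 0.552, edgeR). The glycine transporter Slc6a9 (GlyT1) was 17.7 and 11.9 against 15.0 and 10.3 CPM and overlapped. Slc6a2, the noradrenaline transporter, was 12.8 and 68.3 CPM in CD34+ cells, against 4.54 and 19.8 CPM in CD34- cells. Replicate 2 was far above replicate 1 in each fraction, and within a replicate number the CD34+ library was the higher in 2 of 2. Its log2 fold change of 1.70 (with SE 0.93, adjusted p = 0.403, edgeR) ran from 0.04 without CD34+ replicate 2 to 3.24 without CD34- replicate 2.

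Of the 33 members below 5 CPM 28 had a higher mean in the CD34+ libraries (84.8%), as had 79.6% of the 10474 genes below 5 CPM with any count, so that this direction was general among scarce transcripts. The filter on low counts kept 7 of the 33. Of these 7, the betaine and GABA transporter Slc6a12 had 48 and 17 counts in CD34+ and 6 and 2 in CD34- libraries (log2 fold change 3.33, SE 0.93, adjusted p = 0.217, edgeR; adjusted p = 0.045, DESeq2). Slc6a17, a carrier of synaptic vesicles, had 31 and 16 against 4 and 8 counts (log2 fold change 2.26, SE 0.74, adjusted p = 0.247, edgeR). Slc38a4, a further small neutral amino acid importer, had 61 and 37 against 20 and 11 counts (log2 fold change 1.96, SE 0.63, adjusted p = 0.245, edgeR). In each of the 3 genes CD34+ replicate 1 was the highest library, and without it their log2 fold changes were 2.07, 1.41 and 1.26. The serotonin transporter Slc6a4 had 10 and 8 counts in CD34+ and 0 in both CD34- libraries, at least 3.60-fold higher against a floor of 3 counts per library, and it did not enter the test. The near-identical pair Slc6a20a and Slc6a20b, whose reads may be divided wrongly between them, had 0 to 15 counts. The other untested members had at most 17 counts in any library. Among them were Slc6a3 and Slc6a11 of neuronal and glial cells, Slc6a19, Slc6a18 and Slc7a9 of kidney and gut, and Slc6a13, Slc38a3 and Slc38a5. Of all members 12 had a count of 0 in at least 1 library.

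**Figure D4:**
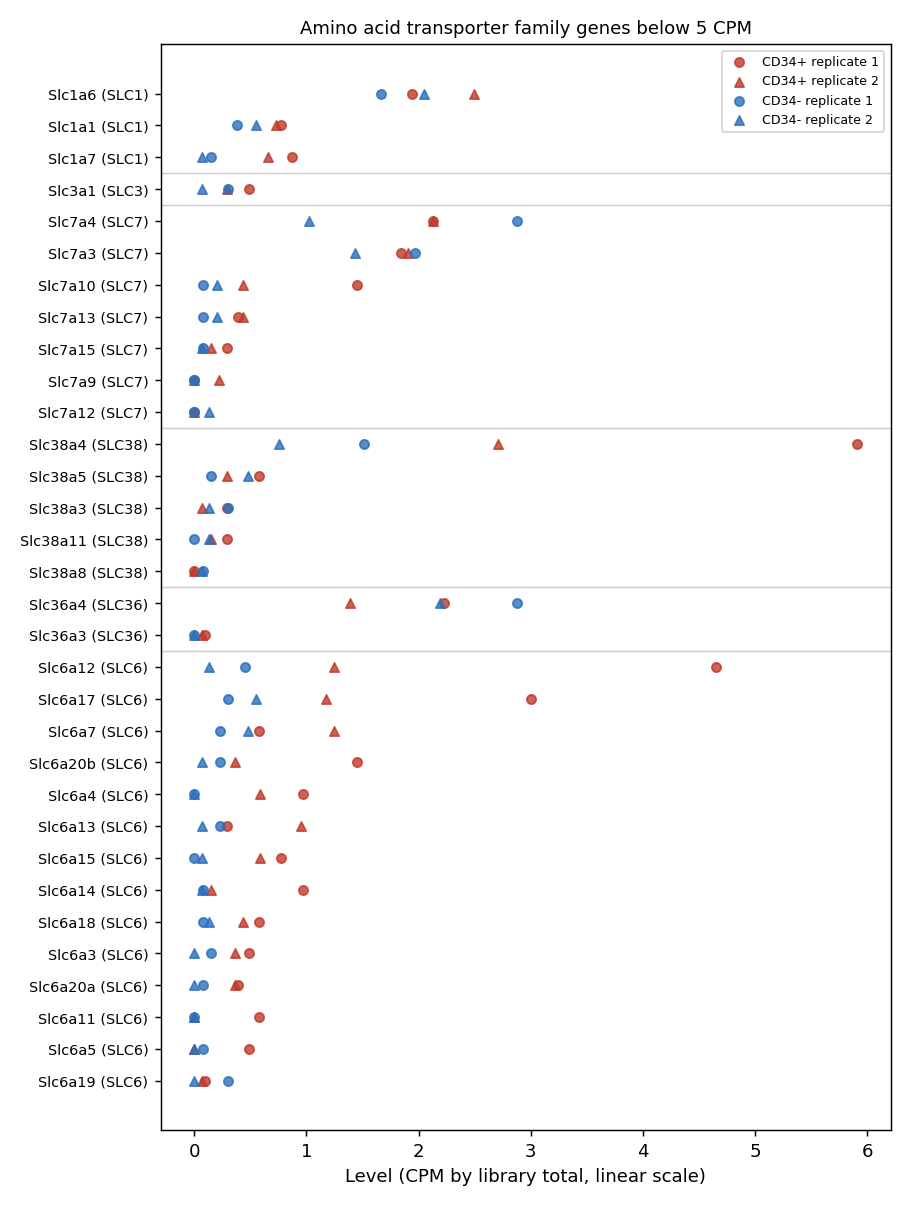
Level of the members below 5 CPM on average, all but 1 of the 33, by SLC family, on a linear axis of CPM, with the 4 libraries marked as in the plot of the abundant members. Most red points lie to the right of the blue ones, as 28 of the 33 genes had the higher mean in CD34+, and Slc38a4 and Slc6a12 reach 5.91 and 4.65 CPM in CD34+ replicate 1.

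Other genes of amino acid handling were read from lists of the same fit, and 0 passed after adjustment in any of them (edgeR). DESeq2 called 1 gene in each list of arginine, branched-chain, and tryptophan and tyrosine enzymes. edgeR's exact test called 1 in each of these, in lysosomal sensing and in the glutamine list. Without a filter edgeR called 1 in each of these but the glutamine list, and 1 further carrier. With the replicate block it called 1, in the arginine list. The shares of all genes called by these tests are given above. Of the 111 tested genes of these lists 6 lay higher at an unadjusted p of 0.05 (5.41%, against 9.81% of all tested genes) and 10 lower (9.01%, against 6.65%), and no list below held more than 3 such genes in 1 direction. Of 20 targets of the amino acid response 11 had a positive and 9 a negative log2 fold change (median 0.05). At an unadjusted p of 0.05 0 of them lay higher (against 9.81% of all tested genes) and 3 lower (15%, against 6.65%). These were Ddit4, an inhibitor of mTORC1 (362 and 150 against 604 and 594 CPM), the lipoprotein receptor gene Vldlr (8.43 and 16.6 against 43.6 and 22.0 CPM) and the mitochondrial folate enzyme gene Mthfd2 (21.7 and 14.4 against 44.0 and 24.5 CPM). Of the 20 cytosolic aminoacyl-tRNA synthetases, which load amino acids onto tRNA, 17 were negative (median -0.37), and 1, Dars, lay lower at an unadjusted p of 0.05 (23.3 and 34.1 against 51.5 and 57.2 CPM; log2 fold change -0.91, SE 0.28, adjusted p = 0.230, edgeR). The median over all tested genes was -0.02.

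Among 24 tested genes of amino acid sensing at the lysosome 10 were positive and 14 negative (median -0.06). Rraga, a GTPase that recruits mTORC1, was 31.7 and 52.3 against 78.0 and 80.6 CPM. Castor1, an arginine sensor listed as Gatsl3, was 30.3 and 34.7 against 18.7 and 22.8 CPM. Depdc5 was 1028 CPM in CD34+ replicate 1 and 28.1 to 45.1 CPM in the other 3 libraries, so its fold change is that of 1 library. Of 15 enzymes of glutamine, glutamate and glutathione 7 were positive and 8 negative (median -0.02), with Ggt5, which cleaves glutathione conjugates (24.3 and 16.8 against 45.3 and 44.9 CPM), and Gss, a synthase of glutathione (26.4 and 23.1 against 53.6 and 36.4 CPM), lower at an unadjusted p of 0.05. Of 12 enzymes of arginine, proline and polyamines 5 were positive (median -0.08), with Arg1 lower as given above.

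Of 7 enzymes of branched-chain amino acids 2 were positive (median -0.06). Dbt, a subunit of the complex that degrades their keto acids, was 22.5 and 37.5 against 78.2 and 74.5 CPM, while the aminotransferase gene Bcat2 was 39.3 and 22.7 against 15.7 and 17.2 CPM. Only 2 of 10 tryptophan and tyrosine enzymes were tested; Afmid, of the kynurenine pathway, was 23.2 and 17.6 against 7.04 and 5.88 CPM (log2 fold change 1.68, SE 0.32, adjusted p = 0.173, edgeR). Of 14 further carriers of amino acids and peptides outside the 7 families 6 were positive (median -0.07). At an unadjusted p of 0.05 2 of them lay higher (14.3%, against 9.81% of all tested genes) and 1 lower (7.14%, against 6.65%). The lower one, Slc15a4, a lysosomal carrier of histidine and peptides, was 10.8 and 14.2 against 22.3 and 21.2 CPM.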

How the data were processed

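Per the submitters' processing notes, reads were handled with Bowtie2, TopHat2, HTSeq and edgeR on build mm9; no source at hand states versions, annotation or strand setting. Per the labels' protocols, RNA was amplified with MessageAmp. The deposited counts are whole reads per gene, not normalized. The deposited RPKM are scaled by gene length and by library totals that are not the count totals, so RPKM were set side by side within a library, and between libraries only in alternatives named as such. The authors' deposited FPKM and the deposited estimated counts of fragments (rounded here) served as alternatives. Each table holds 14 further columns that match no sample here. They were not used.

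Groups came from the titles. Counts were tested with edgeR 4.0.16 (R 4.3.3; quasi-likelihood F test, TMM, filterByExpr, group as the only term, 4 libraries, two-sided), with Benjamini-Hochberg adjustment over 13875 genes at 0.05; SE is the log2 fold change over the square root of F. An exact permutation test of 2 against 2 cannot go below p = 0.333 and was not run. Alternatives used DESeq2 1.42.0 and limma 3.58.1, other scalings and filters, the other tables, a replicate block and each library left out. The fits by edgeR, DESeq2 and limma were tried on simulated data, and the other steps were not. Members averaging at least 5 CPM are named, as are up to 3 genes of smallest p per further list; others, and the genes set beside a member, were chosen after their values were seen. Members, lists and windows were chosen with earlier results of these data known. All 62 symbols matched RefSeq's GRCm38.p6 table, used for names, neighbours and promoter windows only. A few genes of the members and lists stay in the counts and totals but are not reported here by name.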

Additional observations from a re-analysis of the deposited data

How the results depend on the processing

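The counts of calls, the median of the members, the 29 named members, and the medians and adjusted calls of the 8 further lists were recomputed under 17 alternatives. Levels, family sums, shares, marker sums and motif counts were not, apart from the FPKM set beside the RPKM above. Of the 29 named members 16 kept the sign of their log2 fold change in all of them. The count of genes called over all genes, 0 in edgeR's quasi-likelihood test (2284 at an unadjusted p of 0.05), was 2 with upper quartile scaling, with library totals only and with a filter of 1 CPM in 2 libraries, 331 with no filter, 551 by DESeq2, 676 by edgeR's exact test, 51 by limma on log2(RPKM + 0.1) and 62 with the replicate block; without any 1 library it was 0. The count of members called was 1 with no filter, 4 by DESeq2, 3 by edgeR's exact test and 0 in the other 14. Members higher at an unadjusted p of 0.05 (6) numbered 12 with no filter, 1 by limma on log2(RPKM + 1) and 1 on log2(FPKM + 1), and 4 to 10 without 1 library, with 10 when CD34+ replicate 2 was left out. Members lower (3) numbered 1 with upper quartile scaling, 6 on log2(RPKM + 1), 5 on log2(FPKM + 1), and 1 to 3 without 1 library, with 1 when either CD34- library was left out. The median log2 fold change of the tested members (0.22) was 0.29 with upper quartile scaling, 0.60 with no filter and 0.65 by DESeq2, where all 62 members entered, 0.14 on fragment estimates, and -0.10, -0.17 and -0.18 by limma on log2(RPKM + 1), log2(RPKM + 0.1) and log2(FPKM + 1); without 1 library it ran from 0.14 to 0.51. The median of the synthetases stayed below 0 in all 17 (-0.81 to -0.30) and that of the tryptophan and tyrosine enzymes above 0, while those of the other 6 lists changed sign in at least 1. The cause was not tested, except that fewer or more genes entered with another filter.

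Signs turned as follows. By limma on log2(RPKM + 1), log2(RPKM + 0.1) and log2(FPKM + 1), in this order, Slc43a3 was -0.30, -0.30 and -0.39, Slc7a2 -0.60, -0.63 and -0.43, Slc6a8 -0.016, -0.017 and -0.14, Slc43a1 -0.15, -0.17 and -0.30, Slc7a6os -0.084, -0.092 and -0.022, Slc6a9 -0.13, -0.16 and -0.40, and Slc38a7 -0.20, -0.30 and -0.34; Slc38a9 was -0.0032 and -0.015 on the RPKM scales. On fragment estimates Slc38a2 was 0.0087, Slc3a2 0.31, Slc6a9 -0.026 and Slc38a7 -0.043. Slc7a2 was -0.052 with no filter, -0.0048 by DESeq2, -0.19 by limma voom and -0.22 with the replicate block. Without 1 library the ranges were -1.23 to 0.69 for Slc7a2, -0.22 to 0.38 for Slc43a3, -0.74 to 0.12 for Slc38a2, -0.43 to 0.13 for Slc3a2, -0.047 to 0.78 for Slc6a8, -0.095 to 0.97 for Slc7a1, -0.33 to 1.79 for Slc7a8, -0.078 to 0.52 for Slc6a9, -0.30 to 0.46 for Slc38a7, -0.15 to 0.56 for Slc43a1 and -0.30 to 1.90 for Slc1a3. No label says that a replicate number marks shared animals; replicate 1 minus replicate 2 correlated between the fractions across genes (r = 0.24 over 13875 genes, which are not independent), and with the replicate block 0 members passed. With 1 library left out, the lone library of its fraction is assumed to vary like the other 2. A difference under about 3 counts per library is not detectable at this depth.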
